A study of Mus musculus with 10 samples.

Results

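The Myc and Max network was followed through 10 arrays of mouse cells from a study of reprogramming to induced pluripotent stem cells (iPSC). Its 9 genes were Myc, Mycn, Max, Mxd1, Mxd3, Mxd4, Mxi1, Mnt and Mga. They were chosen by name, with earlier results of these data known. Each probe set (the group of short probes that reads a transcript) whose only gene symbol was one of these was kept. This gave 19 probe sets for 9 of the 12393 genes on the array that have a probe set of their own. A probe set was tested if its log2 value exceeded 4 on at least 2 arrays. Of the 19, 13 passed this filter and stood for 8 genes, out of 15252 probe sets tested in all.

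The 10 single-channel arrays formed 5 groups of 2, with replicates named a and b. Established iPSC had been grown in 2i (inhibitors of MEK and GSK3) with serum, or together with mouse embryonic fibroblasts (MEFs). The other 3 groups began as secondary MEFs, fibroblasts derived from reprogrammed cells, in which Myc and the other Yamanaka factors (Pou5f1, Klf4 and Sox2) had been expressed for 32 days. Of these, 1 is a day 32 sample with no fraction named, and the others are the fractions labelled Sox2-positive and Sox2-negative. The series concerns RNA FACS, a sort of cells by the RNA they contain. Medium was that of mouse embryonic stem cells unless a label says otherwise. The labels name no mouse strain, no clone and no promoter for the induced factors. Whether MEFs were still present when RNA was taken is not stated, nor whether replicates were separate cultures. The p-values therefore measure only the spread between these samples, which may be technical.

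Myc and Mycn are basic helix-loop-helix leucine zipper proteins that bind DNA as pairs with Max, and they raise transcription of genes for growth, ribosome assembly and metabolism. Mxd1, Mxd3, Mxd4, Mxi1 and Mnt also pair with Max, and they recruit the Sin3 histone deacetylase complex to the same sites, so they oppose Myc. Mga is a large Max partner and a part of the Polycomb complex PRC1.6, which in embryonic stem cells keeps germline genes silent. Myc is also one of the Yamanaka factors, and embryonic stem cells use Mycn strongly.

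The Max partners recognise the E-box CACGTG, which reads the same on both strands. RefSeq promoters on GRCm38.p6 (250 bases before the gene start and 50 after) were at hand for 8 of the 9 genes, in 10 windows. Myc was not among them. Below are the 250 bases before the start of the 4 genes whose values are described most closely or that hold the motif there. They run 5′ to 3′ on the gene's strand, with CACGTG in capitals.
Mycn chr12:12941837-12942086 (- strand): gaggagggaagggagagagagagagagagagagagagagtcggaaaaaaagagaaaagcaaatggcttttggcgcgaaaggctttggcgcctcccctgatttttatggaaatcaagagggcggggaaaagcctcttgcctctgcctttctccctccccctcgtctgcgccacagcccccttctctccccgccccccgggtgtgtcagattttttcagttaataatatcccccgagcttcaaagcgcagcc
Mga chr2:119896978-119897227 (+ strand): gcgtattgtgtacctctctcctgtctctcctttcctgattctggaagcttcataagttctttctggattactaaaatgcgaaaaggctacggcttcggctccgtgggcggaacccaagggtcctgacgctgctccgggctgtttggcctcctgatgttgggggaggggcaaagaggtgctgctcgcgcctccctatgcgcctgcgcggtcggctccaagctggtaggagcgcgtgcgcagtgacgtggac
Mxd4 chr5:34187711-34187960 (- strand): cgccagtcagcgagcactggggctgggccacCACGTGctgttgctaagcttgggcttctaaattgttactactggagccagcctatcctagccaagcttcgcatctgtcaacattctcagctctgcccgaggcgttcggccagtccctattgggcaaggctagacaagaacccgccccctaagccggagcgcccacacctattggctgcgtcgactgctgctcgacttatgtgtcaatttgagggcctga
Mnt chr11:74830674-74830923 (+ strand): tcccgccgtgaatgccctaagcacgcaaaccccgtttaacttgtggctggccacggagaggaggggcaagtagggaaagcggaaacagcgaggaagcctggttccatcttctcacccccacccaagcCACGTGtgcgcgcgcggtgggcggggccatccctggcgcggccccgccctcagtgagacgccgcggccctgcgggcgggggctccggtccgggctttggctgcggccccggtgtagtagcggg

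The motif was found at -219 from the start in Mxd4, at -123 in Mnt and at -3 in Max, counted to its first base. In the windows of Mycn, Mga, Mxd1, Mxd3 and Mxi1 these letters did not occur. Of all 32851 promoter windows of this length, 7.15% held CACGTG, and 8.09% of 27025 genes did so in at least 1 window. GC content of the 250 bases was 54.8% to 78.4% in the member windows, against a median of 52.4% over all windows. A match describes the letters of the window only.

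Values are deposited log2 units throughout. The level of 18S ribosomal RNA, read by control probe sets, split the arrays into 2 classes. On the 6 arrays of iPSC with MEFs and of both sorted fractions the 18S value was 11.35 to 13.22, and on the 4 arrays of iPSC in 2i and the day 32 sample it was 5.25 to 6.55. The gap between the 3′ and 5′ control probe sets of Actb was 0.05 to 1.12 in the first class and 2.70 to 3.88 in the second. The labels name a pair of amplification kits without saying which sample had which. Comparisons were therefore taken first within a class, and the 2 comparisons across classes are given last. Replicates of the fractions lay farther apart, with a median gap of 0.39 (Sox2-positive) and 0.42 (Sox2-negative) over the tested probe sets, than those of the other groups (0.25 to 0.28). The number of arrays limits the precision, and a permutation test of 2 arrays against 2 cannot give an exact two-sided p below 0.33. Tests are therefore limma's, fitted over all 10 arrays, with Benjamini-Hochberg adjustment over the 15252 probe sets, and a probe set was called at an adjusted p under 0.05.

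**Figure D1:**
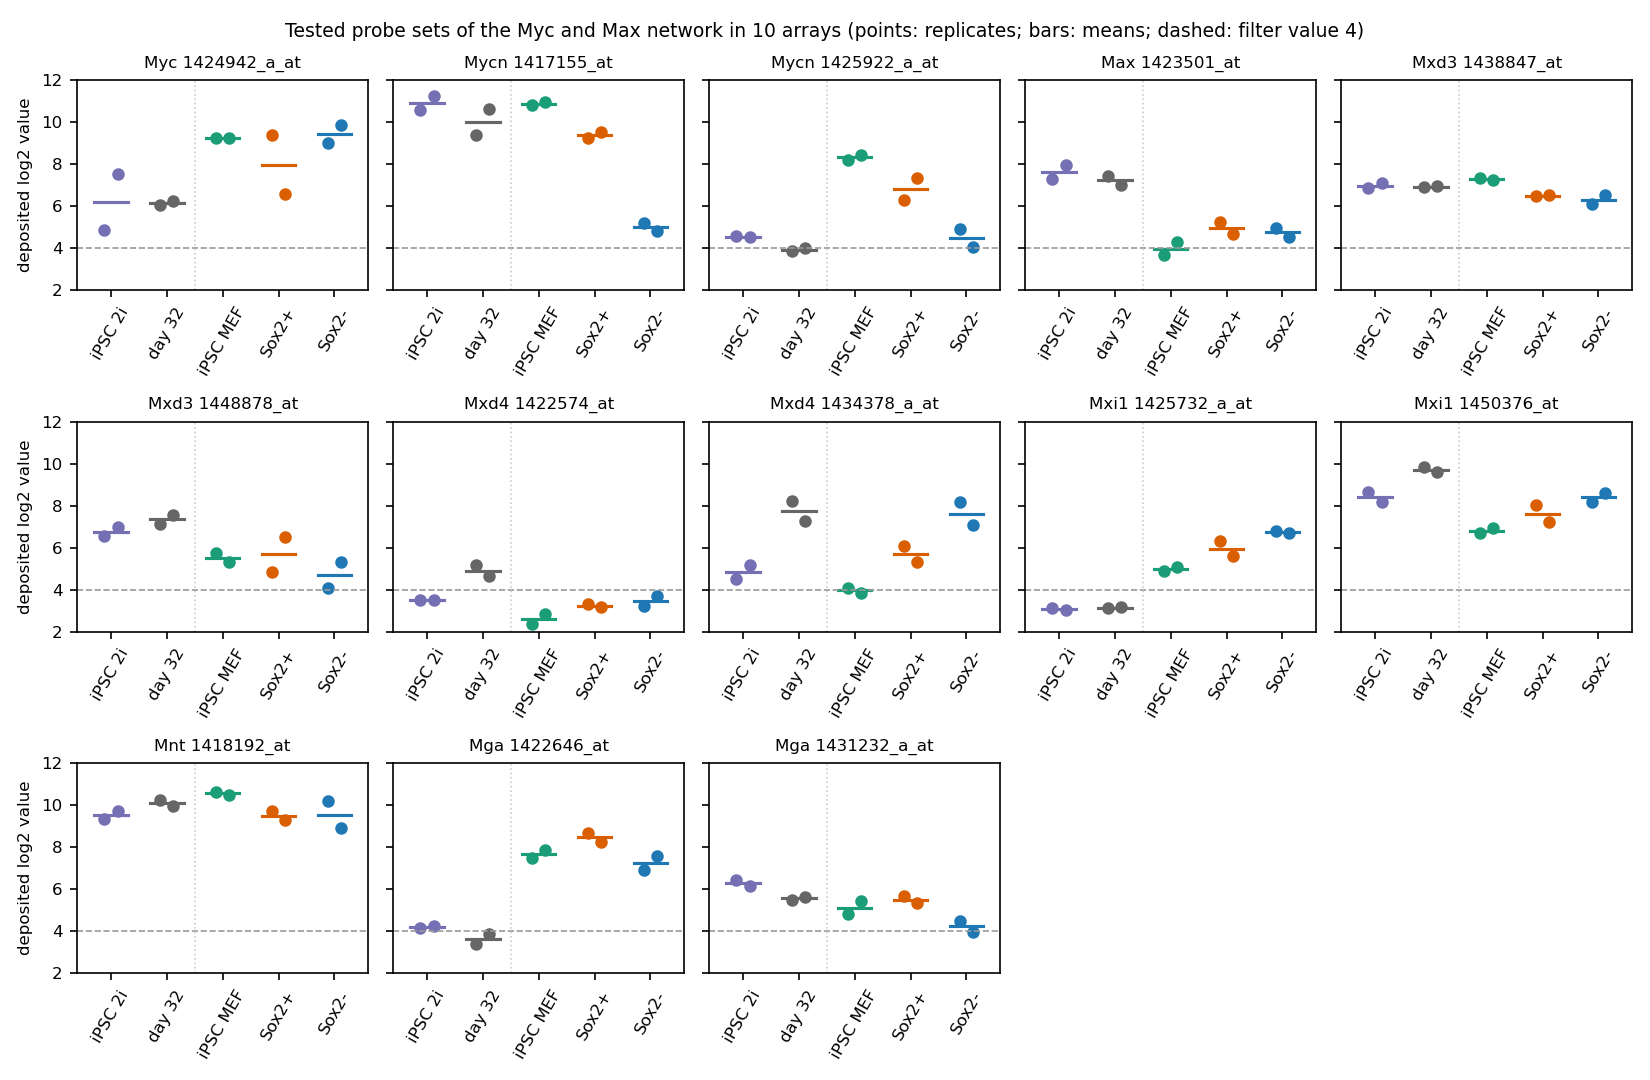
Deposited log2 value (vertical axis) of the 13 tested probe sets in the 5 groups; points are replicates a and b, bars are group means, the dashed line is the filter value of 4, and the dotted line separates the 4 arrays with low 18S (left) from the 6 with high 18S (right). Mycn 1417155_at lay at 4.8 and 5.21 in the Sox2-negative fraction and at 9.23 or above on all other arrays.

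The Sox2-positive and Sox2-negative fractions were compared to see which network factors went with the Sox2 transcript after the same 32 days of induction. Mycn was higher in the Sox2-positive fraction by both tested probe sets, Mga was higher by both of its probe sets, and Mxd4 was lower by its brighter one. Myc, Max, Mxd3, Mxi1 and Mnt had no probe set called. Of 13 member probe sets 5 were called (38.5%), against 11.1% of all probe sets tested in this comparison. By direction, 4 members were higher, where 6.13% of all probe sets were, and 1 was lower, where 4.98% were. The median difference was 0.20 over the members and -0.01 over all probe sets. Because the members were chosen with earlier results of these data known, their shares here and below only describe this set.

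Mycn, the Myc paralog of embryonic stem cells, read 9.23 and 9.55 in the Sox2-positive fraction and 5.21 and 4.8 in the Sox2-negative fraction by 1417155_at. The difference of 4.39 ± 0.41 (SE, n = 2 and 2) corresponds to 20.9-fold (limma adjusted p = 0.000692). The arrays of the 2 fractions lay far apart, and the call held under every alternative run, with adjusted p up to 0.00914. The second probe set, 1425922_a_at, read 6.29 and 7.36 against 4.94 and 4.07. There the difference was 2.32 ± 0.39, or 4.99-fold (adjusted p = 0.00828), and the groups did not overlap. This call was lost in a fit on the 4 compared arrays alone (adjusted p = 0.0989) and held in the other alternatives. The remaining probe set, 1425923_at, stayed between 1.57 and 2.29 on all arrays and was not tested. In bulk samples a smaller share of cells with a transcript and less of it per cell cannot be told apart.

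Myc itself, an induced factor here, read 9.37 and 6.58 in the Sox2-positive and 9.0 and 9.87 in the Sox2-negative fraction by its single probe set, 1424942_a_at. Replicate b of the Sox2-positive fraction lay low, while replicate a lay inside the range of the other fraction, so the groups overlapped. The difference of -1.46 ± 0.95 did not pass (adjusted p = 0.358), and its 95% interval ran from -3.61 to 0.69. Without that replicate b it was -0.07, and without replicate a it was -2.86 (adjusted p = 0.0763). The sources do not say whether this probe set also reads the induced copy of Myc.

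Max, the partner that the others share, read 5.27 and 4.69 in the Sox2-positive against 4.97 and 4.54 in the Sox2-negative fraction. The arrays interleaved, and the difference of 0.23 ± 0.36 was not called (adjusted p = 0.739, 95% interval -0.59 to 1.04). The interval leaves room for a change of up to 1.04 upward, so the data do not show equal levels.

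Among the Max partners that oppose Myc, Mxd4, a factor linked to cells leaving the cycle, read 6.10 and 5.30 in the Sox2-positive and 8.16 and 7.09 in the Sox2-negative fraction by 1434378_a_at. All 4 arrays were separated by fraction, with a difference of -1.93 ± 0.47, or 3.80-fold lower (adjusted p = 0.0337). The call was lost without replicate b of the Sox2-positive (0.155) or replicate a of the Sox2-negative fraction (0.134), with array weights (0.107), on the compared arrays alone (0.134) and with no filter (0.055). The other tested Mxd4 probe set, 1422574_at, lay under 4 on all 4 of these arrays. Mxi1, a relative of Mxd1, read 6.31 and 5.61 against 6.80 and 6.71 by 1425732_a_at. By 1450376_at it read 8.01 and 7.24 against 8.19 and 8.62. Both Mxi1 probe sets had all arrays of the Sox2-positive fraction below those of the other, yet neither passed, with differences of -0.79 ± 0.28 (adjusted p = 0.0976) and -0.78 ± 0.33 (adjusted p = 0.165).

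Mxd3, which unlike its relatives is found in dividing cells, read 6.5 and 6.51 against 6.09 and 6.52 by 1438847_at, and the groups overlapped. By 1448878_at it read 4.86 and 6.52 against 4.10 and 5.33, again with overlap, and the difference of 0.97 ± 0.56 was not called (adjusted p = 0.292). Mnt, the broadly expressed partner of Max, read 9.70 and 9.30 against 10.17 and 8.89. Its replicates in the Sox2-negative fraction enclosed both Sox2-positive values, and its difference was -0.03 ± 0.40 (adjusted p = 0.976, 95% interval -0.93 to 0.87). Mxd1, the founding Mxd gene, had a single probe set that lay between 2.71 and 3.31 on all arrays and was not tested.

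Mga, the scaffold of PRC1.6, read 8.68 and 8.24 in the Sox2-positive and 6.89 and 7.56 in the Sox2-negative fraction by 1422646_at. By 1431232_a_at it read 5.66 and 5.34 against 4.51 and 3.97. Neither probe set had overlapping groups. The differences were 1.24 ± 0.32, or 2.35-fold (adjusted p = 0.0407), and 1.26 ± 0.31, or 2.39-fold (adjusted p = 0.032). Both calls stood close to the threshold. They were lost with array weights (0.126 and 0.12), on the compared arrays alone (0.179 and 0.152) and on the 6 arrays with high 18S (0.0856 and 0.0777). Without Sox2-positive replicate a the adjusted p was 0.13 and 0.096, and without replicate b 0.0744 and 0.0729. Without Sox2-negative replicate a the first was at 0.151, and without replicate b the second was at 0.108.

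**Figure D2:**
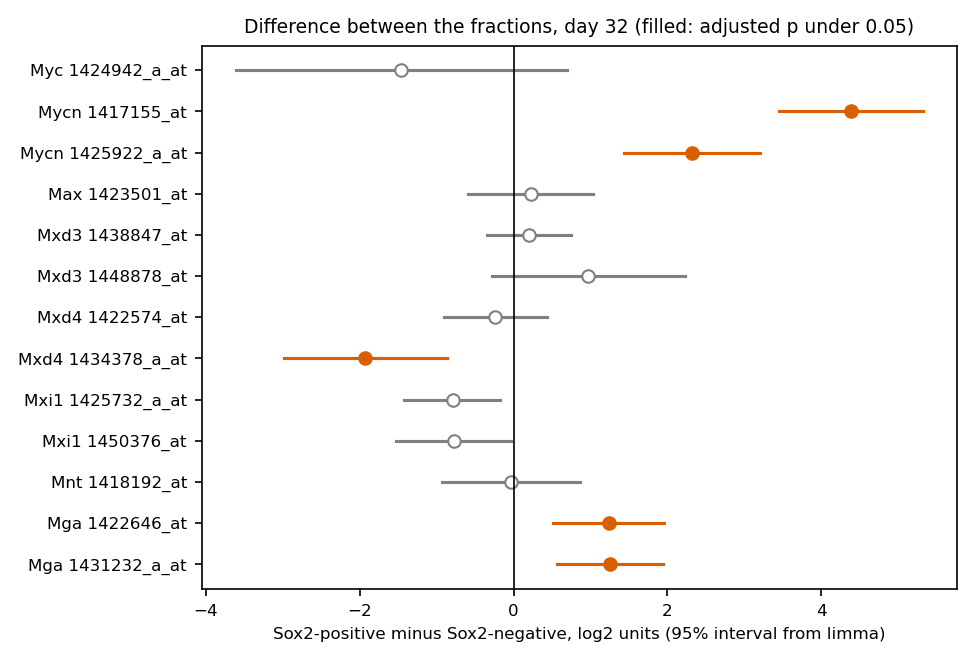
Difference between the Sox2-positive and Sox2-negative fractions (horizontal axis, log2 units; above 0 is higher in the Sox2-positive fraction) for the 13 tested probe sets, with 95% intervals from limma and filled points for an adjusted p under 0.05. Mycn stood highest at 4.39 and 2.32, Mga lay at 1.24 and 1.26, Mxd4 1434378_a_at lay at -1.93, and the interval of Myc was the widest.

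Cell type markers moved with these differences. Of 10 pluripotency genes, 8 were higher in the Sox2-positive fraction. Their summed level (log2) was 13.71 to 13.94 against 10.77 to 11.59, and 10 against 5 of them exceeded 4 on both arrays. The list held Pou5f1, Nanog, Zfp42, Dppa5a, Esrrb, Tdgf1, Utf1, Sox2, Tfcp2l1 and Nr0b1. Sox2 is the transcript by which the fractions are labelled, so its part in these values is not a separate result. Of the 9 cycling genes, 2 were higher (Bub1 and Top2a), with summed levels of 12.51 to 12.53 against 11.96 to 12.39. Markers of 3 other cell types leaned to the Sox2-negative fraction. The summed level of 3 adipocyte genes was 11.30 to 12.17 there against 5.43 to 5.80. That of 5 keratinocyte genes was 8.49 to 11.15 against 4.74 to 4.77, and that of 10 fibroblast genes 8.08 to 8.13 against 5.87 to 5.98. Few genes can set such sums. Above 4 on both Sox2-negative arrays were 2 of 3 adipocyte, 1 of 5 keratinocyte and 2 of 10 fibroblast genes. On both Sox2-positive arrays 0 fibroblast genes were. Lower in the Sox2-positive fraction by limma were 2 of 3 tested adipocyte, 2 of 3 keratinocyte and 1 of 6 fibroblast genes. The 5 macrophage genes went the other way, with 7.13 to 7.17 in the Sox2-positive against 5.26 on both Sox2-negative arrays, and 1 of 2 tested was higher. The part of these cells in the member differences was not tested.

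The wider pathway was read by gene, each gene by its tested probe set with the highest mean. Between the fractions 6.13% of all tested probe sets were higher and 4.98% lower. In a fit with 1 probe set per gene, 590 of 8599 genes were higher and 486 lower. With 7 to 40 genes in a list, a single call in a direction lies near these shares. Between the fractions, none of the 4 extended network genes (Mycl, Mlx, Mlxip and Mlxipl), of 8 Sin3 complex genes and of 11 Myc coactivators was called by limma, with medians of 0.06, 0.09 and 0.22. At an unadjusted p under 0.05 they numbered 0, 0 and 1. Of 7 other PRC1.6 genes, Yaf2, a small subunit that joins Ring proteins, was lower at 7.45 against 9.88 (difference -2.42, adjusted p = 0.00916) and also by its other probe set (-1.37, adjusted p = 0.0307), opposite in direction to Mga. A dimmer probe set of Pcgf6, a PRC1.6 subunit, was higher like Mga (1.62, adjusted p = 0.0303), while its brightest was not called (-0.33). Of 10 genes of Myc turnover, Trim32, a ubiquitin ligase, was lower (difference -1.06, adjusted p = 0.035), as was a dimmer probe set of Fbxw7, the ubiquitin ligase subunit that marks Myc for decay (-1.24, adjusted p = 0.0279). Among 40 genes known as induced by Myc, 1 was higher and 1 lower, with a median of -0.14. They were Tcof1, a ribosomal RNA transcription factor (difference 1.18, adjusted p = 0.0337), and Nop16, a nucleolar protein (difference -2.01, adjusted p = 0.0258). Their other probe sets were not called, at 0.30 and 0.07 for Tcof1 and -1.03 for Nop16. Among 8 genes known as repressed by Myc, Ndrg2 (2.69) and Gadd45a (2.27) were higher, while Thbs1 (-5.68) and Cebpa (-1.75) were lower, the last with group means under 4 on both sides. These list calls rested on few arrays. Without Sox2-positive replicate b, 0 induced, turnover and PRC1.6 genes and 0 higher repressed targets were called. Without Sox2-negative replicate a, 0 induced and turnover genes were, with 1 repressed target in each direction. Without Sox2-negative replicate b, 0 turnover genes and 0 higher repressed targets were, and without Sox2-positive replicate a 0 induced targets were higher.

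Each fraction was next set against established iPSC with MEFs, whose arrays were of the same class by 18S and Actb. Other array values still differed. The gap between the 3′ and 5′ control probe sets of Gapdh was 3.18 and 2.53 in iPSC with MEFs against 1.03 to 1.56 in the fractions. The Actb gap was 1.12 and 1.08 against 0.05 to 0.21, and the upper quartile of all values 7.38 and 7.37 against 6.87 to 6.91. Their part in the differences was not tested. Both comparisons share the iPSC arrays, so their results are not independent. An unusual iPSC value moves both differences the same way. Mycn was lower than in these iPSC in both fractions, Mxd4 and Mxi1 were higher in both, and Myc was called in neither. In the Sox2-positive fraction against iPSC with MEFs 5 of 13 members were called (38.5%), 2 higher and 3 lower, where 32.7% of all probe sets were called, 7.49% higher and 25.2% lower. In the Sox2-negative fraction 8 of 13 were called (61.5%), 4 in each direction, where 44.7% of all were, 13.3% higher and 31.3% lower. The median of all probe sets was -0.34 and -0.38, and that of the members 0.37 and -0.44. In the Sox2-positive comparison the number called is thus near the background. The split by direction moved with the scaling there: quantile normalization gave 4 members higher and 0 lower (1408 and 1554 of all probe sets), and centring 6 and 1 (1717 and 2460). In the Sox2-negative comparison quantile normalization gave 4 and 3 (2511 and 2810), and centring 5 and 3 (2650 and 3534).

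Cell type markers moved here too, with Sox2 again among the 10 pluripotency genes. In the Sox2-negative fraction 9 of 10 pluripotency genes were lower than in iPSC with MEFs (median -5.71, summed level 10.77 to 11.59 against 14.23 to 14.45). Summed adipocyte genes were 11.30 to 12.17 against 3.63 to 3.75, and keratinocyte genes 8.49 to 11.15 against 4.39 to 4.58. Fibroblast genes stayed near, at 8.08 to 8.13 against 8.13 to 8.26, with 1 of 6 tested higher and 2 lower. Macrophage genes were 5.26 on both Sox2-negative arrays and 7.13 to 7.17 in the Sox2-positive fraction, against 5.73 to 6 in iPSC with MEFs. Of 2 tested, 1 was lower in the Sox2-negative and 1 higher in the Sox2-positive fraction. In the Sox2-positive fraction 4 pluripotency genes were lower (13.71 to 13.94), and summed fibroblast genes were 5.87 to 5.98 against 8.13 to 8.26. Of 10 fibroblast genes 2 exceeded 4 on both arrays of iPSC with MEFs, and 2 of 6 tested were lower in the Sox2-positive fraction. The part of these markers in the member differences was not tested.

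Mycn in iPSC with MEFs read 10.82 and 10.94 by 1417155_at, above both fractions. The Sox2-positive fraction was lower by 2.81-fold (difference -1.49 ± 0.41, adjusted p = 0.0237) and the Sox2-negative by 58.7-fold (-5.87 ± 0.41, adjusted p = 0.000117). By 1425922_a_at iPSC with MEFs read 8.22 and 8.43, and the differences were -1.50 ± 0.39 (adjusted p = 0.019) and -3.82 ± 0.39 (adjusted p = 0.000273). The order was thus iPSC with MEFs, Sox2-positive, Sox2-negative in both probe sets, with no overlap at either step. The Sox2-negative calls held under every alternative run. The Sox2-positive calls were lost after quantile normalization (adjusted p 0.374 and 0.16), without iPSC replicate a (0.0973 and 0.0783) or b (0.109 and 0.101), and without Sox2-positive replicate a (0.104 and 0.108). Median centring also took the first past the threshold (0.054), and the 6 arrays with high 18S alone the second (0.053).

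Myc in iPSC with MEFs read 9.25 and 9.26. The Sox2-negative values of 9.0 and 9.87 lay on both sides of these (difference 0.18, adjusted p = 0.89). The Sox2-positive difference of -1.28 (adjusted p = 0.328) became 0.12 without Sox2-positive replicate b. Max read 3.66 and 4.28 in iPSC with MEFs, below all 4 fraction arrays, and neither difference passed, at 1.01 (adjusted p = 0.0599) and 0.78 (adjusted p = 0.106).

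Mxd4 1434378_a_at read 4.09 and 3.85 in iPSC with MEFs, below each array of either fraction. The Sox2-positive fraction was 3.32-fold higher (difference 1.73 ± 0.47, adjusted p = 0.0225) and the Sox2-negative fraction 12.6-fold higher (3.66 ± 0.47, adjusted p = 0.000611). The second call held under every alternative run, and the first was lost without iPSC replicate a (0.0883) or b (0.113) or Sox2-positive replicate a (0.125). By the dim 1422574_at the Sox2-negative fraction was also called (0.89, adjusted p = 0.0361), with both groups under 4. This call was lost without either iPSC replicate (0.202 and 0.0525), without Sox2-negative replicate b (0.157), with array weights (0.0553), on the compared arrays alone (0.074) and on the 6 arrays with high 18S (0.065). Mxi1 read 4.90 and 5.06 by 1425732_a_at and 6.69 and 6.93 by 1450376_at in iPSC with MEFs, below all fraction arrays. In the Sox2-negative fraction it was 3.42-fold higher (1.77 ± 0.28, adjusted p = 0.00129) and 3.02-fold higher (adjusted p = 0.00482). In the Sox2-positive fraction the first probe set was 1.97-fold higher (0.98 ± 0.28, adjusted p = 0.0253), and the second did not pass (0.81, adjusted p = 0.0875). That Sox2-positive call was lost without iPSC replicate a (0.128) or b (0.0811), without Sox2-positive replicate a (0.138), on the compared arrays alone (0.0693) and on the 6 arrays with high 18S (0.0674).

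Mxd3 1438847_at read 7.35 and 7.26 in iPSC with MEFs and lay below this on all fraction arrays, with differences of -0.80 (adjusted p = 0.0345) and -1.0 (adjusted p = 0.0102). The first call was lost without any 1 of the 4 arrays (0.0804 to 0.145), after quantile normalization (0.349) or centring (0.132), on the compared arrays alone (0.0627) and on the 6 arrays with high 18S (0.0818). The second was lost after quantile normalization (0.0894) and without iPSC replicate a (0.06). The other Mxd3 probe set was not called in either comparison (0.16 and -0.81). Mnt read 10.64 and 10.47, higher than all 4 fraction arrays, and missed the threshold at -1.05 (adjusted p = 0.0695) and -1.02 (adjusted p = 0.0623). Mga read 7.46 and 7.87 by 1422646_at and 4.83 and 5.43 by 1431232_a_at in iPSC with MEFs. The Sox2-positive differences of 0.80 and 0.37 did not pass. In the Sox2-negative fraction 1431232_a_at was 1.85-fold lower (-0.89, adjusted p = 0.0404), and 1422646_at was not called (-0.44, adjusted p = 0.29). That call was lost without iPSC replicate b (0.24) or Sox2-negative replicate b (0.182), with centring (0.126), array weights (0.0616), the compared arrays alone (0.0888) and the 6 arrays with high 18S (0.0838).

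**Figure D3:**
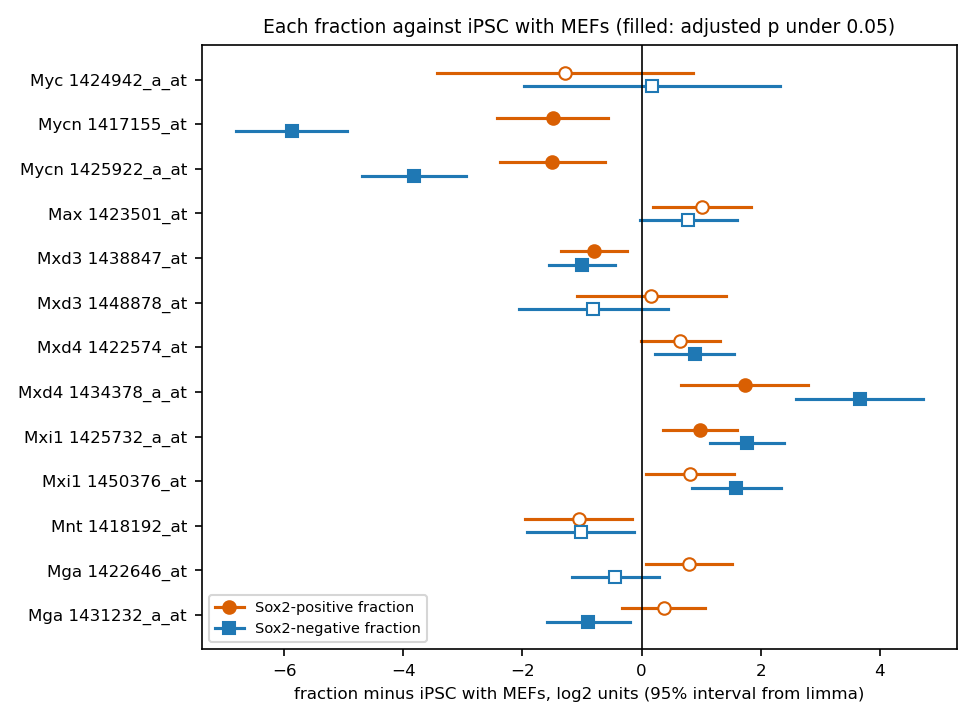
Difference of each fraction from iPSC with MEFs (horizontal axis, log2 units, with 95% intervals from limma; filled points had an adjusted p under 0.05) for the 13 tested probe sets, Sox2-positive as circles and Sox2-negative as squares. Mycn lay at -1.49 and -5.87, Mxd4 1434378_a_at at 1.73 and 3.66, and the intervals of Myc crossed 0 in both fractions.

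Of the wider pathway, the list of targets induced by Myc was the longest, so its count of calls cannot be ranked against the others. In a fit with 1 probe set per gene, 2561 of 8599 genes were lower and 527 higher in Sox2-positive minus iPSC with MEFs. In Sox2-negative minus iPSC with MEFs 3059 were lower and 1028 higher. Of 40 genes known as induced by Myc, 29 were lower and 0 higher in the Sox2-positive fraction (median -1.49), and 29 were lower and 2 higher in the Sox2-negative fraction (median -1.26). Over their 87 tested probe sets, 52 were lower and 0 higher, and 53 lower and 9 higher. Tfrc, the transferrin receptor, differed by -2.17 and -2.46, and Prmt3, a methyltransferase of ribosomal proteins, by -2.20 and -2.74, though its other probe sets, between -0.44 and 0.40, were not called. Bysl, a ribosome assembly factor, came next in the Sox2-positive fraction (-2.19, adjusted p = 0.00123), and Mthfd2, a folate enzyme of mitochondria, in the other (-2.79, adjusted p = 0.000465), with its other probe set at -0.88 and not called. After quantile normalization, which brought the median of all probe sets from -0.34 to -0.02 and from -0.38 to -0.04, the counts were 13 and 14 lower, with 0 and 3 higher. Leaving out single arrays gave 22 to 26 lower in the Sox2-positive and 22 to 25 in the Sox2-negative fraction.

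The other lists stand beside 25.2% and 31.3% of all probe sets lower (Sox2-positive and Sox2-negative), with medians of -0.34 and -0.38. With 7 genes, the PRC1.6 counts lie near these shares. After quantile normalization 10.2% and 18.4% of all probe sets were lower. Of 8 Sin3 complex genes, through which the Mxd factors and Mnt repress, 7 were lower in each fraction (medians -1.31 and -1.41). Among them were Hdac1 (-1.52 and -1.68) and Suds3 (-1.51 and -1.57). After quantile normalization 1 and 3 were lower and 1 was higher in each, and leaving out an array gave 4 to 7 and 6 to 7 lower. Of 11 coactivators, 7 were lower in each, including Ruvbl1, an ATPase of chromatin remodelling complexes (-1.58 and -1.45). After quantile normalization 1 and 4 were, and the Sox2-positive count was 3 without either iPSC replicate and 4 without Sox2-positive replicate a. Of 10 turnover genes, 5 were lower in the Sox2-positive fraction, and 7 lower and 1 higher in the other. The first count was 2 after quantile normalization and 3 without Sox2-positive replicate a. The second was 4 without iPSC replicate a and with centring. Skp2, a ubiquitin ligase subunit that acts on Myc, differed by -2.51 and -2.18 at its brightest probe set, and 4 and 4 of its 6 probe sets were lower. Of 7 PRC1.6 genes 3 were lower in the Sox2-positive fraction, and 1 without either iPSC replicate. In the other, Tfdp1 (-1.47) and Ring1 (-1.04) were lower and Yaf2 was higher (2.05, adjusted p = 0.00453). Of the 8 repressed targets only Thbs1 was called in the Sox2-positive comparison (-2.21, adjusted p = 0.0469), with 0 lower when any 1 of the 4 arrays was left out, and 4 were higher and 2 lower in the Sox2-negative one, with Thbs1 (3.47) and Cdkn1a (1.51), the p21 cell cycle inhibitor, higher. Without iPSC replicate a these were 2 higher and 1 lower. The medians of the repressed targets were 0.06 and 0.31. Of the 4 extended network genes 1 was lower in each, Mlxip in the Sox2-positive comparison (-1.19, adjusted p = 0.0494). Of the 9 cycling genes 1 and 5 were lower.

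The day 32 sample was compared with iPSC in 2i and serum, both of the low 18S class. Here Mxd4 was higher by both tested probe sets, and these were the only members called. They were 2 of 13 (15.4%), both higher, where 6.35% of all probe sets were called, 3.93% higher and 2.42% lower. The median was -0.05 over the members and -0.14 over all probe sets. Mxd4 1434378_a_at read 8.24 and 7.28 on day 32 and 4.50 and 5.20 in iPSC, with no overlap. It was 7.52-fold higher (2.91 ± 0.47, adjusted p = 0.0112). By 1422574_at it read 5.16 and 4.64 against 3.50 and 3.51, at least 1.87-fold higher against the filter value of 4 (1.40 ± 0.29, adjusted p = 0.0283). The first call was lost without iPSC replicate a (0.0704) or day 32 replicate a (0.11) and on the compared arrays alone (0.0501). The second was lost without either of those arrays (0.116 and 0.24), without iPSC replicate b (0.149), on the compared arrays alone (0.068) and after quantile normalization (0.07).

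Mxi1 1450376_at read 9.82 and 9.58 on day 32 and 8.67 and 8.16 in iPSC in 2i, with no overlap, and just missed the threshold (1.29, adjusted p = 0.0541). It passed after quantile normalization (0.0475), with array weights (0.0167) and with 1 probe set per gene (0.0489). The other Mxi1 probe set, 1425732_a_at, read 3.14 and 3.16 against 3.15 and 3.04, all under 4. Its difference was 0.06 (limma adjusted p = 0.934), and the groups overlapped. Myc read 6.05 and 6.25 against 4.86 and 7.54, and the iPSC replicates enclosed both day 32 values (difference -0.05, adjusted p = 0.983). Mycn read 9.38 and 10.62 against 10.58 and 11.25 by 1417155_at, with an overlap of 1 array, and was not called (-0.91, adjusted p = 0.221). Max read 7.44 and 7.02 against 7.29 and 7.98 (-0.40, adjusted p = 0.554), again interleaved. Mnt (0.57, adjusted p = 0.434), Mga 1422646_at (-0.56, adjusted p = 0.339) and Mga 1431232_a_at (-0.71, adjusted p = 0.198) were not called. Nor were Mycn 1425922_a_at (-0.62, adjusted p = 0.382), Mxd3 1438847_at (-0.06, adjusted p = 0.917) and Mxd3 1448878_at (0.58, adjusted p = 0.579).

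The markers also moved here. Summed adipocyte genes were 10.79 to 11.74 on day 32 against 4.82 to 5.48 in iPSC in 2i. Fibroblast genes were 9.33 to 9.47 against 7.86 to 8.01, with 2 of 6 tested higher. Keratinocyte genes were 9.02 to 11.08 against 5.27 to 5.29, with 2 of 3 tested higher. Pluripotency genes were 13.85 to 14.67 against 15.03 to 15.11, with 1 of 10 lower and a median of -0.83. Their part in the Mxd4 difference was not tested. The pathway lists stand beside 3.93% of all probe sets higher and 2.42% lower. Of the Myc-induced targets, Ccnd2, a cyclin, was higher (4.63, adjusted p = 0.0287) and Tfrc was lower (-1.07, adjusted p = 0.0345), with a median of -0.42 over the 40. These 2 calls lie near the shares over all probe sets. Yaf2 was higher by 1.82 (adjusted p = 0.038), and Cebpa, an adipocyte and myeloid regulator among the repressed targets, by 4.04 (adjusted p = 0.00123). The induced targets had 0 calls without iPSC replicate a or either day 32 replicate, and 1 higher and 0 lower without iPSC replicate b. The PRC1.6 list had 0 calls when any 1 of the 4 arrays was left out, while the repressed list had 1 or 2 higher. By the brightest probe set of each gene, limma called 0 genes of the extended network, Sin3, coactivator and turnover lists, and 0, 1, 1 and 2 had an unadjusted p under 0.05. A dimmer probe set of Mlx, the Max-like partner, was lower (-1.08, adjusted p = 0.0493).

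Comparisons across the classes were large and cannot be told apart from the class of array. Between iPSC in 2i and iPSC with MEFs 61.3% of all probe sets were called, 49.8% higher in 2i and 11.5% lower, and 9 of 13 members were (69.2%), 4 higher and 5 lower. With each array centred on its median the split over all probe sets was 2647 higher and 4669 lower, and after quantile normalization 3201 and 2978, and members were 1 higher and 6 lower under both. Between the mean of both fractions and the day 32 sample 76.8% of all were called, 11.4% higher and 65.3% lower, and 11 of 13 members (84.6%), 4 higher and 7 lower. There centring gave 4704 higher and 3614 lower, and quantile normalization 3766 and 4809, with members at 5 and 2 and at 5 and 3.

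Probe sets of 1 gene went apart by class. Mga 1422646_at read 4.17 and 4.25 in 2i, 3.41 and 3.89 on day 32 and 6.89 to 8.68 on the 6 other arrays. Mga 1431232_a_at was higher in 2i, at 6.42 and 6.14, than in iPSC with MEFs. Thus 1 Mga probe set was lower in 2i (difference -3.46, adjusted p = 5.8e-05) and the other higher (1.15, adjusted p = 0.00975). Mxi1 likewise was lower with 1425732_a_at (-1.89, adjusted p = 0.000459) and higher with 1450376_at (1.6, adjusted p = 0.00276). Mycn differed by 0.04 (adjusted p = 0.946) with 1417155_at, whereas 1425922_a_at, at 4.56 and 4.55 in 2i, was lower (-3.77, adjusted p = 8.94e-05). The gap between the probe sets of Mga was 2.38 to 3.59 on the 6 arrays with high 18S and -2.25 to -1.74 on the others. That of Mxi1 was 1.39 to 1.91 against 5.12 to 6.68, and that of Mycn 0.27 to 2.94 against 5.50 to 6.70. For Mxd4 the 2 ranges overlapped, at 1.02 to 4.91 and 1.0 to 3.08, as they did for Mxd3. For Mga, Mxi1 and Mycn no direction across the classes is therefore given.

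**Figure D4:**
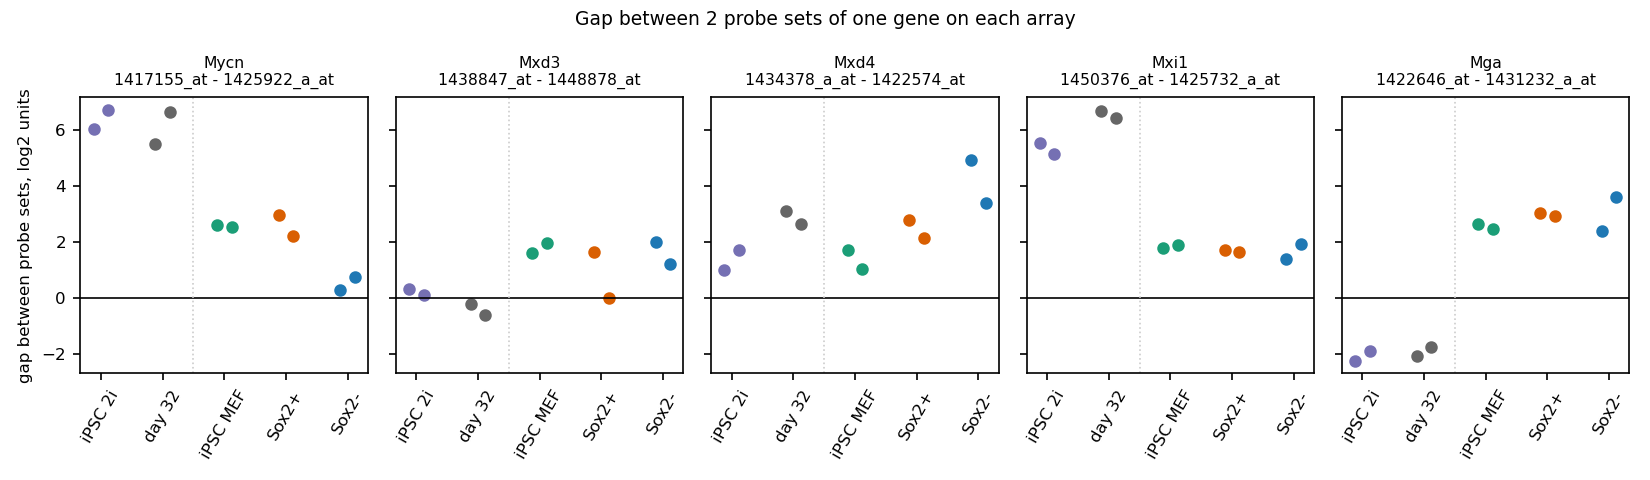
Gap between the 2 tested probe sets of a gene on each array (vertical axis, log2 units; points are replicates; the dotted line separates the 4 arrays with low 18S from the 6 with high 18S). For Mga the gap was above 2 on all arrays to the right and below 0 on all to the left, and the classes did not overlap for Mycn or Mxi1 either.

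Genes with a single tested probe set have no such check. Max was higher in 2i than in iPSC with MEFs by 12.7-fold (3.66, adjusted p = 7.39e-05) and lower in the fractions than on day 32 (-2.36, adjusted p = 0.000132), so its 4 highest values, 7.02 to 7.98, were those of the low 18S arrays. Myc was lower in 2i by 8.31-fold (-3.05, adjusted p = 0.02) and higher in the fractions than on day 32 by 2.55 (adjusted p = 0.0179). The first call was lost without iPSC in 2i replicate a (-1.71, 0.159) or either replicate of iPSC with MEFs (0.0802 and 0.0825), and the second without day 32 replicate a (0.0856) or b (0.0697). In both genes the split followed the class, except that Sox2-positive replicate b at 6.58 for Myc lay below iPSC in 2i replicate b at 7.54. Mnt varied least among these, between 8.89 and 10.64 on all 10 arrays. It was still called lower in 2i than in iPSC with MEFs, close to the threshold (-1.02, limma adjusted p = 0.0493). In the fractions against day 32 it was not called (-0.59, limma adjusted p = 0.143).

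The likeness of other genes to Myc and Mycn was ranked by Pearson's r over the 10 arrays, which share groups and class, and is given as a description. Closest to Myc were Psme3 (r = 0.978, with values that spanned 8.47 to 9.18), Scaf4 (0.934) and Traf6 (0.919). Closest to Mycn 1417155_at were Klf2 (0.991), Pla2g1b (0.991) and Dnmt3l (0.988), each of which ranged over more than 6 log2 units.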

How the data were processed

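The log2 expression values deposited by the authors were used as they were. Per the submitters' processing notes they were made with GCRMA and affy, with versions not given in the sources used here. Of 22690 probe sets, 64 were array controls; of the others 20380 had 1 gene symbol, 691 several and 1555 none, from the supplied platform annotation. The 15252 probe sets above a log2 value of 4 on at least 2 of the 10 arrays were tested with limma 3.58.1 in R 4.3.3, as a mean per group in 1 fit with empirical Bayes (5 residual and 4.2 prior degrees of freedom), and p-values were adjusted by Benjamini-Hochberg. The script was tested on simulated data. A fold is 2 to the log2 difference; where no array of the lower group reached 4, it was taken against 4. GCRMA subtracts background by probe sequence, which can compress dim values. Each tested member probe set is given in at least 1 comparison. Of the untested, Mnt 1418193_at lay at 2.66 to 3.37 and Mxd4 1422575_at at 2.26 to 2.96 on all arrays. Mxd3 1422970_at exceeded 4 on 1 array (4.03, iPSC in 2i replicate b), and Mxd4 1434379_at on 1 (5.22, day 32 replicate a). Of each pathway list up to 3 called genes were named from the lowest p, except 4 of the repressed targets. Some that qualified were passed over. Lists were counted by gene, where the plan had probe sets. Members and lists were chosen with earlier results of these data known. The main fit did not pair arrays by replicate letter. The correlation of a minus b deviations was 0.31 between the day 32 sample and the Sox2-positive fraction, and 0.2 with the Sox2-negative fraction. In the other pairs of groups it was -0.06 to 0.05. Whether letters mark shared cultures is not stated. Figures used matplotlib 3.10.9.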

Additional observations from a re-analysis of the deposited data

How the results depend on the processing

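With 2 arrays a group, most counts moved when an array was left out. Member probe sets called, in the order of the report, numbered 2 to 4, 0 to 5, 6 to 9, 0 to 2, 5 to 7 and 8 to 12, and all probe sets called 705 to 1776, 1822 to 4465, 4015 to 5912 and 127 to 882 in the first 4 comparisons. The Sox2-positive comparison with iPSC kept 0 members without either iPSC replicate or Sox2-positive replicate a. The day 32 comparison kept 0 without iPSC in 2i replicate a or day 32 replicate a, and 263 probe sets in all without either iPSC replicate.

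With array weights the fractions differed in 496 probe sets and 2 members, and day 32 in 2114. On the compared arrays alone these were 308 and 1, and 314 and 0. Quantile normalization gave 2962 for the Sox2-positive comparison, 574 for day 32 and 6179 for the iPSC groups, and centring gave 7 members for the fractions against day 32. With 1 probe set per gene (8 members tested) the counts were 1076, 3088, 4087, 5253 and 6814, and 3, 3, 4, 4 and 6 members, in the order of the report without the day 32 comparison. On the 6 arrays with high 18S, chosen after seeing the data, 3 and 2 members were called in the first 2 comparisons. With the replicate block members called were 5, 5, 7, 2, 10 and 11. The member lost in the third was Mga 1431232_a_at in Sox2-negative minus MEFs (adjusted p = 0.0503).

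Of 893 member differences under alternatives, 740 kept direction and side of the threshold, 102 lost the call, 24 gained it and 27 changed sign. After quantile normalization Mga 1422646_at was 0.09 in Sox2-negative minus iPSC with MEFs; in 2i minus MEFs Mycn 1417155_at was -0.17 and Mxd4 1434378_a_at -0.04; in the fractions minus day 32 Mxd3 1438847_at was 0.86, Mxd4 1434378_a_at 0.27, Mnt 0.51 and Mga 1431232_a_at 0.43. Centring gave Mycn -1.07 and Mxd4 -0.20 and -0.23 in 2i minus MEFs, and 0.83, 0.24, 0.75 and 0.64 for the same 4 in the fractions minus day 32. Leaving out arrays, signs changed for Max (-0.06 to 0.51), Mnt (-0.67 to 0.61) and Mxd3 1438847_at (-0.01 to 0.42) between the fractions, Mxd3 1448878_at (-0.66 to 1.0) and Myc (-2.67 to 0.12) in Sox2-positive and Myc (-0.25 to 0.62) in Sox2-negative minus MEFs, Myc (-1.39 to 1.29) and Mxd3 1438847_at (-0.17 to 0.04) on day 32, and Mycn 1417155_at (-0.30 to 0.37) in 2i minus MEFs. The cause of these changes was not tested.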
